A study of Mus musculus with 6 samples.

Results

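Rab proteins are small GTPases that give each membrane of the cell its identity and direct vesicles between compartments. An exchange factor (GEF) loads a Rab with GTP, the active Rab recruits effectors such as tethers and motor proteins, and a GTPase-activating protein (GAP) switches it off. A prenyl anchor holds the Rab in the membrane. Many Rabs come as paralogs, close relatives that share much of their sequence and can differ in tissue or route. The set described here is every gene entry whose symbol consists of Rab, a number and at most a short suffix, so that effectors such as Rab3ip or Rab11fip1 are not members. The rule found 59 of 23282 entries, and it used no measured value.

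Messenger RNA 3′ ends were counted in 6 libraries of BMOL, which the labels call a progenitor line from mouse liver. The labels give 3 libraries as vector control and 3 as TXNIP overexpression, and they name no further allele, drug or time. TXNIP, thioredoxin-interacting protein, is an alpha-arrestin that binds thioredoxin and lowers glucose uptake. The comparison asks which transcripts differ between cells with the TXNIP construct and cells with the vector alone. Nothing says that the replicates were separate cultures or separate clones, so p-values measure the spread between these libraries, which may be technical. Levels are counts scaled to a common library size (CPM), from totals of 8725624 to 15119775 reads.

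Txnip itself stood at 39.7, 9.84 and 10.9 CPM in the control libraries and at 209, 291 and 286 CPM in the TXNIP libraries, a log2 fold change of 3.82 ± 0.46 (SE, adjusted p = 2.76e-05), or 4.71 without control replicate 1. The libraries also differed in markers of cell type. All 13 tested of 16 leukocyte and macrophage markers were higher in the TXNIP libraries, where the list summed to 6860 to 7590 CPM, against 73.8 to 96.5 CPM in the controls. Ptprc, the leukocyte antigen CD45, had 6 reads over the controls and 4915 over the TXNIP libraries, and the macrophage growth factor receptor gene Csf1r rose from 28.7 ± 3.32 to 999.9 ± 126 CPM (SD, n = 3 each). The Kupffer cell and resident macrophage markers Clec4f, Marco and Timd4 had no read in any library, and 6 of the 16 were at 0 in the controls. Of 14 ductular and epithelial markers, 9 of the 10 tested were lower and 8 had no read in the TXNIP libraries, Epcam among them (52 control reads). The other tested one, Spp1, was higher, and without it the list summed to 2750 to 4060 CPM in the control libraries and 0.0895 to 1.51 CPM in the TXNIP libraries. Krt18 had 19564 reads against 1. Hepatocyte markers summed to 41.3 to 69.1 CPM in the controls and 96.2 to 108 CPM in the TXNIP libraries, where Afp was higher (mean 11.4 and 99.2 CPM) while Ttr and Hnf4a were lower, Hnf4a with 1276 reads against 0. Endothelial markers summed to 38.8 to 45.7 and 14.8 to 23.2 CPM, and fibroblast markers to at most 2.98 CPM in any library. The TXNIP libraries thus lack defining markers of the labelled cell type. These values move with the groups in every result below. Their part in the Rab results was not tested, and a change in which cells were present cannot be told apart from a change within cells. In these bulk samples, fewer cells of a type and less RNA per cell cannot be told apart either.

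Most Rab genes that could be tested differed between the groups, and about as often as other genes. Of 59 Rab genes, 46 passed the filter on low counts. Of these, 10 rose and 21 fell in the TXNIP libraries in edgeR's quasi-likelihood test (Benjamini-Hochberg adjusted p under 0.05), and 15 did not pass. That is 67.4% of the tested Rab genes, against a background of 64.5% of all 12088 tested genes (30.6% higher and 33.9% lower). By groups that did not overlap, the count was 32 of 46 Rab genes, against 70.5% of all tested genes. Both measures stood near their background. The median log2 fold change of the tested Rab genes was -0.27, against -0.04 for all tested genes, and the median size regardless of sign was 0.62 against 0.80. Differences over 2-fold were found for 20 Rab genes, 8 higher and 12 lower, where the background was 40.7% of tested genes (18.1% higher and 22.5% lower). Of the 46, 10 had passed the filter only through 1 group (Rab17, Rab7b, Rab15, Rab27b, Rab3b, Rab38, Rab30, Rab39, Rab27a and Rab6b). They are low in the other group by that choice, so these counts describe the table and support nothing further. Together the 59 genes took 0.405%, 0.381% and 0.388% of the reads in the control libraries and 0.353%, 0.366% and 0.371% in the TXNIP libraries. By these library totals the groups did not overlap. That separation depends on scaling by totals. The scaling factors of the test (TMM) were 1.01 to 1.04 in the controls and 0.965 to 0.987 in the TXNIP libraries. How often other sets of genes separate in this way was not counted.

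**Figure D1:**
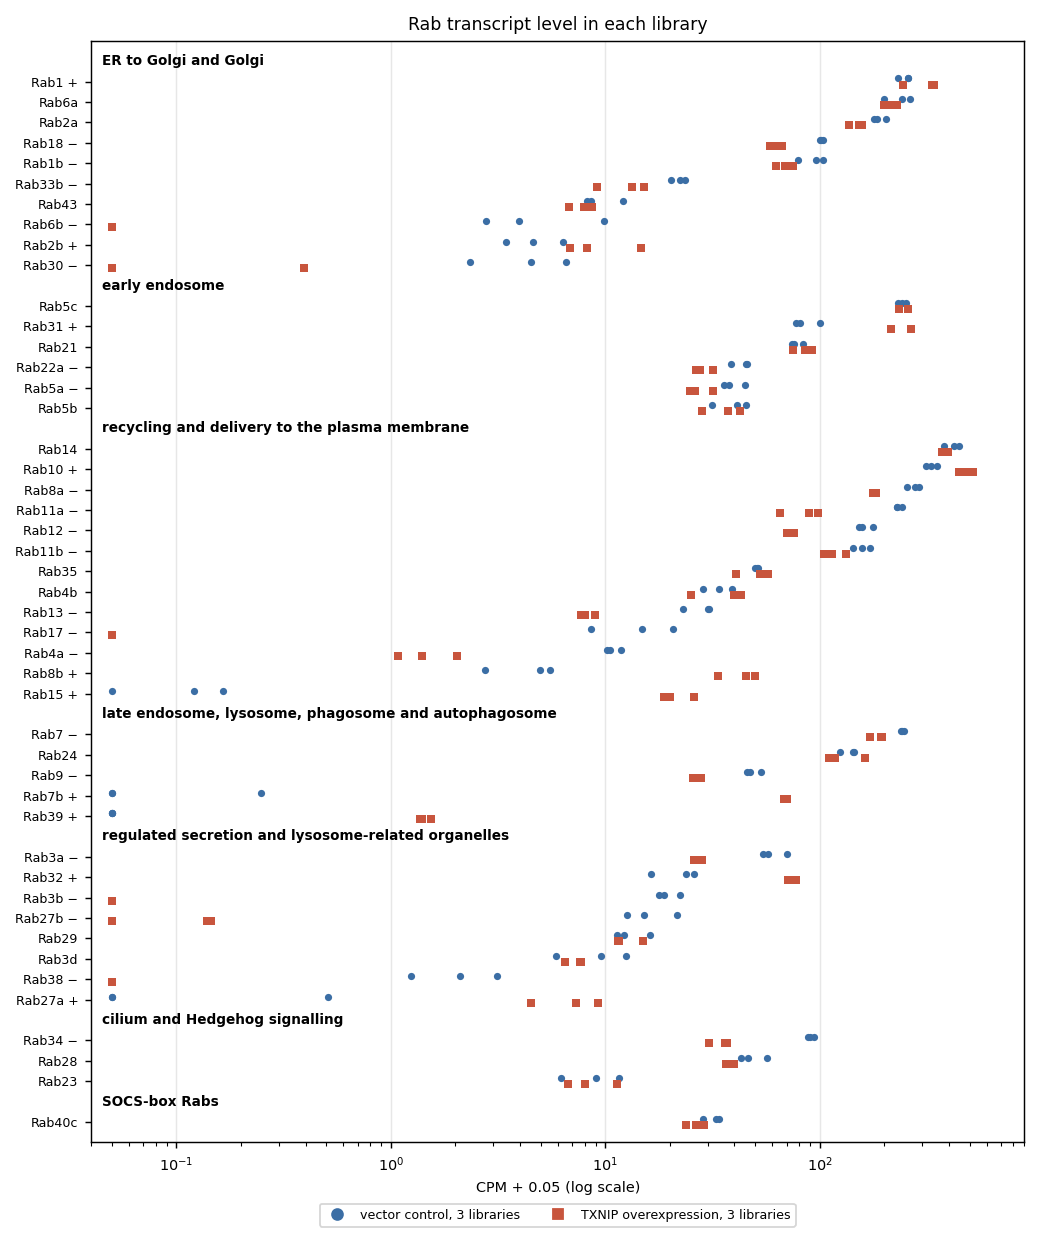
The 46 tested Rab genes are listed by compartment, with the level in each library on a log axis as CPM + 0.05 (circles, 3 vector control libraries; squares, 3 TXNIP overexpression libraries). A plus or minus marks a gene that passed the test, and points at the left edge are libraries with no read. Rab7b, Rab15 and Rab39 stand at or near 0 in the controls, and Rab3b, Rab17, Rab6b and Rab38 are at 0 in all 3 TXNIP libraries.

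The Rabs of the early secretory pathway carry cargo between the endoplasmic reticulum (ER), the Golgi and its stacks. Of 10 tested, 2 rose, 5 fell and 3 did not pass, beside 30.6% higher and 33.9% lower over all tested genes. Rab6b, a paralog of the Golgi Rab Rab6a that is best known from brain, had 9.81, 3.89 and 2.71 CPM in the control libraries and no read in the TXNIP libraries. Against a floor of 3 reads over a group without reads, it was at least 48.7-fold lower. Control replicate 1 held the highest level, and the fitted log2 fold change was -8.91 with it and -8.28 without it. Rab30, a Golgi Rab, had 2.28, 4.46 and 6.48 CPM in the controls against 0.344, 0 and 0 CPM. Its 181 control reads faced 3 reads, all in TXNIP replicate 1, a ratio of 48.4 (exact 95% interval 16.3 to 237). The fitted log2 fold change was -5.26, and -8.71 without that library, -4.67 without TXNIP replicate 2 and -4.63 without TXNIP replicate 3. The groups did not overlap for either gene. Both genes passed the filter only through the controls, so that separation and the direction of their calls were fixed by the filter.

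Smaller falls were seen in Rabs that every cell type uses. Rab18, which acts at the ER and on lipid droplets, fell from 104, 99.7 and 101 CPM to 66.9, 58.5 and 61.4 CPM (log2 fold change -0.63 ± 0.13 (SE), adjusted p = 0.000773). Rab33b, a Golgi Rab that binds the autophagy protein ATG16L1, fell 1.76-fold (adjusted p = 0.0117). The paralogs of ER-to-Golgi transport parted. Rab1 had 232, 257 and 258 CPM in the control libraries and 245, 341 and 334 CPM in the TXNIP libraries, and it rose by the test (log2 fold change 0.37 ± 0.14, adjusted p = 0.0367) although TXNIP replicate 1 lay within the control range. Rab1b had 95.7, 104 and 78.9 CPM against 62.3, 69.0 and 75.0 CPM and fell (-0.36 ± 0.14, adjusted p = 0.041), with groups that did not overlap. The Rab1 call was lost without any 1 library other than TXNIP replicate 1 (adjusted p from 0.0674 to 0.132) and with scaling by library size alone (0.0816). The Rab1b call was lost without any 1 library other than control replicate 3 (adjusted p from 0.06 to 0.174) and in limma-voom (0.0548).

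Rab2b, whose family acts in transport between Golgi and ER, rose from 4.56, 3.40 and 6.28 CPM to 8.14, 6.79 and 14.6 CPM (2.07-fold, adjusted p = 0.0197). TXNIP replicate 3 was the highest library, and the call was lost without it (adjusted p = 0.13) or without control replicate 2 (0.0734). Its paralog Rab2a stood at 204, 179 and 185 CPM against 137, 158 and 152 CPM and just missed the threshold (adjusted p = 0.0596) with separate groups. It passed with library size alone (0.0237), under a filter of 5 CPM (0.048) and in DESeq2 (0.0344). Rab6a and Rab43 did not pass either. Rab19, a Golgi-associated Rab that the filter left out, had no control read and 1.15, 0.66 and 2.95 CPM in the TXNIP libraries, at least 20.8-fold higher. Rab33a had 2 reads in all.

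Among the Rabs of the early endosome, where endocytosed cargo is sorted, 1 of 6 tested rose, 2 fell and 3 did not pass. Over all tested genes, 30.6% were higher and 33.9% lower. Rab31, also called Rab22b, which works between the trans-Golgi network and endosomes, had 100, 77.4 and 80.8 CPM in the control libraries and 214, 266 and 265 CPM in the TXNIP libraries. The mean went from 86.1 ± 12.2 up to 248 ± 29.7 CPM (SD, n = 3 each), or 2.88-fold (log2 fold change 1.60 ± 0.14 (SE), adjusted p = 8.39e-07). Every TXNIP library lay above every control. Its relative Rab22a fell from 38.4, 45.4 and 46 CPM to 26.5, 27.7 and 31.6 CPM (log2 fold change -0.53 ± 0.16, adjusted p = 0.0121). Leaving out control replicate 3 ended that call (adjusted p = 0.0549).

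Rab5, the regulator of early endosome fusion, has 3 paralogs, and of these Rab5a alone passed. Rab5a fell from 44.9, 37.9 and 35.7 CPM to 26.1, 24.9 and 31.8 CPM (log2 fold change -0.44 ± 0.17, adjusted p = 0.0365). Rab5a no longer passed without control replicate 1 or 2 or TXNIP replicate 1 or 2 (adjusted p from 0.064 to 0.131). Rab5c stood at 253, 231 and 242 CPM against 234, 233 and 257 CPM, with overlapping groups (log2 fold change 0.07 ± 0.11, adjusted p = 0.623). Rab5b and the integrin-traffic Rab Rab21 did not pass either (adjusted p = 0.813 and 0.251).

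Of 13 tested Rabs of recycling endosomes and of delivery to the plasma membrane, 3 rose, 7 fell and 3 did not pass, beside 30.6% higher and 33.9% lower over all tested genes. Of the 13, 7 changed by over 2-fold, beside 40.7%. These class counts were not tested against the background. They include Rab17 and Rab15, which passed the filter through 1 group only, so the direction of their calls was fixed by that. Rab11a, the central Rab of the slow recycling endosome, lies on chromosome 9 (64715299 to 64737758). It had 230, 229 and 242 CPM in the control libraries and 65.4, 89.2 and 97.7 CPM in the TXNIP libraries, a fall from 234 ± 7.38 to 84.1 ± 16.7 CPM (SD, n = 3 each; 2.78-fold, log2 fold change -1.41 ± 0.15 (SE), adjusted p = 4.48e-06). Rab4a, of the fast recycling route, fell from 11.7, 10.1 and 10.4 CPM to 1.03, 1.98 and 1.34 CPM (7.43-fold, log2 fold change -2.80 ± 0.36, adjusted p = 2.53e-05). Its paralog Rab4b stood at 28.4, 38.7 and 34.0 CPM against 25.1, 39.6 and 42.7 CPM and did not pass (adjusted p = 0.544).

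Rab17, an epithelial Rab of apical recycling and transcytosis, had 20.6, 8.50 and 14.7 CPM in the control libraries and no read in the TXNIP libraries (524 reads against 0, at least 140-fold lower). Rab13, which acts at tight junctions, fell from 30.2, 30.2 and 23.1 CPM to 8.02, 7.64 and 8.95 CPM (3.39-fold, log2 fold change -1.69 ± 0.21, adjusted p = 1.68e-05). The epithelial Rab25, a relative of Rab11, had no read in any library. Rab12, which sends the transferrin receptor to degradation, fell from 178, 157 and 152 CPM to 71.6, 70.4 and 76.1 CPM (2.23-fold, adjusted p = 8.05e-06). The groups did not overlap for Rab17, Rab13 or Rab12. For Rab17, which passed the filter only through the controls, that followed from the filter.

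The rises of this class were Rab15, Rab8b and Rab10. Rab15, a Rab of early and recycling endosomes, had 2 reads over the controls and 660 over the TXNIP libraries, at 20.1, 25.9 and 18.8 CPM, a ratio of 411 (exact 95% interval 113 to 3402). Its control reads fell 1 each in replicates 1 and 2. Rab15 passed the filter only through the TXNIP libraries, so it could only be called higher. The fitted log2 fold change was 8.46, and 7.83 if control replicate 3 was left out. Rab8b, a Rab of exocytosis, rose from 5.48, 2.69 and 4.89 CPM to 33.4, 49.9 and 45 CPM (mean 4.35 ± 1.47 to 42.7 ± 8.49 CPM, SD, n = 3 each), or 9.82-fold (log2 fold change 3.38 ± 0.27 (SE), adjusted p = 3.74e-07). Rab10, which carries the glucose transporter GLUT4 to the surface of fat cells, rose from 350, 312 and 329 CPM to 520, 479 and 445 CPM (log2 fold change 0.61 ± 0.12, adjusted p = 0.000608). Rab8a moved the other way, from 290, 277 and 254 CPM to 177, 183 and 182 CPM (-0.53 ± 0.11, adjusted p = 0.00128). Rab11b also fell, from 172, 157 and 143 CPM to 104, 114 and 132 CPM (-0.36 ± 0.13, adjusted p = 0.0298). It no longer passed without control replicate 1 or 2 or TXNIP replicate 1 or 2 (adjusted p from 0.0609 to 0.0958). Rab14 and Rab35 did not pass (adjusted p = 0.817 and 0.79).

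Of 5 tested Rabs of the late endosome, lysosome and phagosome, 2 rose, 2 fell and 1 did not pass. Over all tested genes, 30.6% were higher and 33.9% lower. The 2 that rose, Rab7b and Rab39, passed the filter only through the TXNIP libraries, so they could only be called higher. Rab7b, a late endosomal Rab best known from macrophages and dendritic cells, where it affects Toll-like receptor traffic, lies on chromosome 1 (131688695 to 131715439). It had 0, 0 and 0.198 CPM in the control libraries and 68.4, 70.3 and 69.2 CPM in the TXNIP libraries. Its 3 control reads, all in replicate 3, faced 2116 reads, a ratio of 879 (exact 95% interval 300 to 4265). The fitted log2 fold change was 9.66, and 12.56 if control replicate 3 was left out or 9.05 if control replicate 2 was. Rab39, which acts in phagosomes, had no control read and 1.49, 1.32 and 1.34 CPM (42 reads, at least 17.4-fold higher). Rab9, which returns mannose 6-phosphate receptors from late endosomes to the Golgi, fell from 47.1, 45.8 and 53.0 CPM to 28.0, 26.1 and 25.7 CPM (log2 fold change -0.80 ± 0.15 (SE), adjusted p = 0.000614). Rab7, the main Rab of lysosome fusion, fell from 240, 246 and 243 CPM to 193, 172 and 196 CPM (-0.31 ± 0.12, adjusted p = 0.0336), and its groups were separate. It no longer passed without control replicate 2 or 3 or TXNIP replicate 2 or 3 (adjusted p from 0.0741 to 0.154).

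Rab24, linked to autophagy, did not differ detectably, at 143, 124 and 144 CPM against 163, 111 and 118 CPM (adjusted p = 0.996). Of the 5 genes of this class that the filter left out, Rab36 had 35 control reads and none in the TXNIP libraries, at least 9.36-fold lower. Rab39b had 13 reads against 1, and Rab42 had 1 against 12. Rab20, a phagosomal Rab, had 18 against 4, and Rab9b had none.

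Rabs of regulated secretion and of lysosome-related organelles, the compartments of secretory granules, lytic granules and pigment, included paralogs that moved in opposite directions. Of 8 tested, 2 rose, 4 fell and 2 did not pass, beside 30.6% higher and 33.9% lower over all tested genes. Rab27a, Rab27b, Rab3b and Rab38 passed the filter only through 1 group, so the direction of their calls was fixed by that. Rab27b, a Rab of secretory granules, had 21.4, 12.5 and 15.1 CPM in the control libraries and 0, 0.0943 and 0.0895 CPM in the TXNIP libraries (593 reads against 2, a ratio of 238 with an exact 95% interval of 65.6 to 1970). Rab27a, which docks lytic granules and melanosomes, showed the reverse, with 0.456, 0 and 0 CPM in the control libraries and 7.22, 9.24 and 4.47 CPM in the TXNIP libraries (45.9-fold by mean CPM). All 4 control reads came from replicate 1. The fitted log2 fold change of Rab27a was 5.90, and 9.41 without that library, 5.26 without control replicate 2 and 5.22 without control replicate 3.

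Of 3 tested paralogs of Rab3, the Rab of synaptic and other regulated exocytosis, 2 fell, beside 33.9% of all tested genes. Rab3b had 22.1, 17.7 and 18.7 CPM in the control libraries and no read in the TXNIP libraries (726 reads against 0, at least 194-fold lower). Rab3a fell from 70.4, 54.3 and 57.1 CPM to 28.3, 26.9 and 25.8 CPM (2.25-fold, log2 fold change -1.09 ± 0.16 (SE), adjusted p = 6.03e-05). Rab3d did not pass (adjusted p = 0.473), and Rab3c had no read. Rab32, which with its partner Rab38 sorts cargo to lysosome-related organelles and acts against bacteria in macrophages, rose from 25.9, 16.4 and 23.8 CPM to 70.7, 77.3 and 76.2 CPM. The mean went from 22.0 ± 5.02 to 74.7 ± 3.53 CPM (SD, n = 3 each; 3.39-fold, log2 fold change 1.84 ± 0.18 (SE), adjusted p = 2.15e-06). Rab38 went the other way, from 3.08, 2.05 and 1.19 CPM to no read (74 reads against 0, at least 19.8-fold lower). Rab29, the third member of that family, stood at 16.1, 12.1 and 11.2 CPM against 11.3, 11.5 and 14.9 CPM and did not pass (adjusted p = 0.954). Rab26, Rab37 and Rab44 had 4, 2 and 0 reads in all.

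Of the 3 Rabs of the cilium and Hedgehog signalling, Rab34, needed for building cilia, fell from 89.8, 94.2 and 88.5 CPM to 30.5, 35.9 and 37.0 CPM (2.63-fold, log2 fold change -1.33 ± 0.14, adjusted p = 3.54e-06). Rab23, a negative regulator of Hedgehog signalling, and Rab28 did not pass (adjusted p = 0.96 and 0.148). Rab40c, which carries a SOCS box that recruits a ubiquitin ligase, did not pass (adjusted p = 0.333), and Rab40b had 2 reads.

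**Figure D2:**
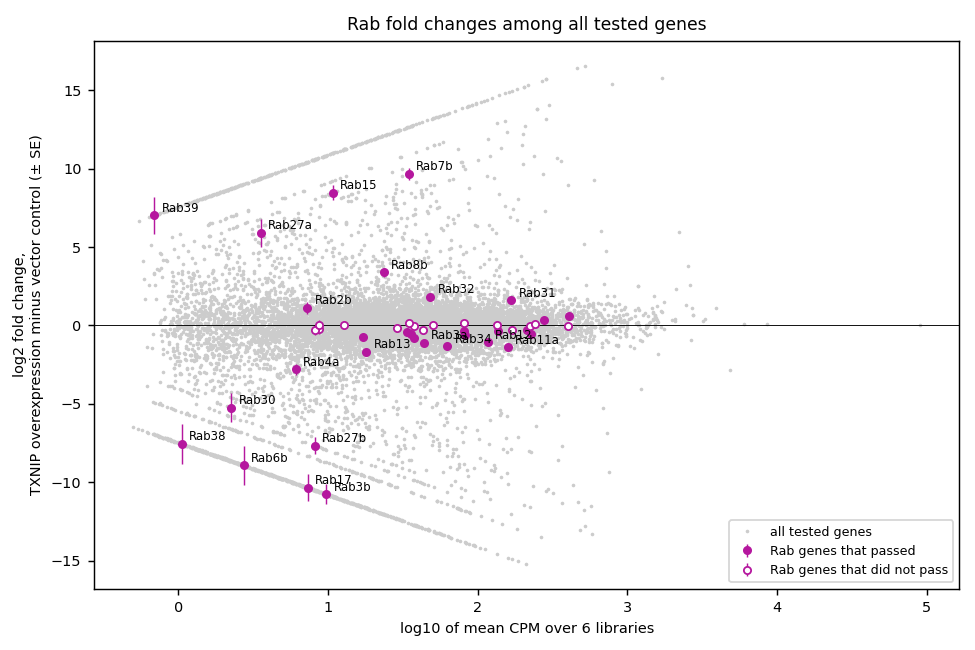
Each point is a tested gene, with the log10 of its mean CPM over the 6 libraries on the x axis and the fitted log2 fold change, TXNIP overexpression minus vector control, on the y axis (grey, all 12088 genes; magenta, Rab genes with bars of ± SE, filled where they passed). The named Rab genes of low mean level reach far from 0 and the ones of high level stay between -1.41 and 1.60; diagonal rows are genes with no or few reads in 1 group, whose fitted values depend on the prior count.

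Among Rab genes, as over all tested genes, differences over 2-fold were more frequent at lower levels. At a mean of at least 100 CPM over the 6 libraries, 3 of 13 Rab genes differed by over 2-fold (Rab31, Rab12 and Rab11a), beside 28.5% of all tested genes at that level. From 20 to 100 CPM the count was 5 of 16, beside 33.0%. Under 20 CPM it was 12 of 17, beside 53.3%, and 9 of those 12 are among the 10 that passed the filter through 1 group only. The median size of the log2 fold change under 20 CPM was 5.26 for Rab genes and 1.23 for all tested genes. Of the 13 Rab genes at 100 CPM or more, 8 passed the test, beside 70.0% of all tested genes at that level. Mean levels of Rab14, Rab5c, Rab6a, Rab7 and Rab1 differed by less than 1.5-fold, while Rab8a fell 1.52-fold, Rab12 2.23-fold and Rab11a 2.78-fold.

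Paralog pairs were compared by the share that each member held of its family's reads in a library, a measure that scaling of the library cannot change. Of 19 families with at least 2 entries, 13 had 2 or more tested members. In 6 of these, 1 member or more rose while another fell: Rab1 with Rab1b, Rab7b with Rab7, Rab10 and Rab8b with Rab8a and Rab13, Rab31 with Rab22a, Rab27a with Rab27b, and Rab32 with Rab38. Over all tested genes 30.6% rose and 33.9% fell, and how often unrelated genes part in this way was not counted. Of the members named, Rab7b, Rab27a, Rab27b and Rab38 had passed the filter only through the group where they are high, so the direction of their calls was fixed by that, and 3 of the 6 families rest on them. In the Rab1 and Rab7 families, and in the pair of Rab31 with Rab22a, 1 call or both were lost in at least 1 of the leave-outs given above. The exact permutation test over 3 against 3 libraries cannot go below p = 0.1, and each share named here reached that smallest value with groups that did not overlap. For the shares of Rab7b, Rab27a, Rab27b, Rab38 and Rab3b, which passed the filter through 1 group only, that outcome followed from the filter and supports nothing.

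The Rab27 family changed its member almost wholly. Its 2 members passed the filter only through opposite groups, so such a change followed from that choice. Rab27a held 2.08%, 0% and 0% of Rab27 reads in the control libraries and 100%, 99.0% and 98.0% in the TXNIP libraries, a mean difference of 98.3 percentage points. The summed Rab27 level fell from 16.5 ± 4.84 to 7.04 ± 2.39 CPM (SD, n = 3 each), so the member that rose did not make up the level of the one that fell. In the Rab7 family the sum hardly moved, at 243 ± 3.29 and 256 ± 12.3 CPM, while Rab7b went from 0%, 0% and 0.0816% to 26.1%, 29.0% and 26.1% of the family's reads. In the Rab29, Rab32 and Rab38 family, Rab32 went from 57.5%, 53.6% and 65.7% to 86.2%, 87.0% and 83.6%, and the sum rose from 37.3 ± 7.33 to 87.3 ± 4.73 CPM.

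In the family of Rab8, Rab10 and Rab13, the exocytic Rabs, Rab10 took 51.8%, 50.2% and 53.9% of reads in the control libraries and 70.4%, 66.6% and 65.4% in the TXNIP libraries. Rab8a fell from 42.9%, 44.5% and 41.5% to 24.0%, 25.4% and 26.7%, Rab13 from 3.78% to 4.85% down to 1.06% to 1.31%, and Rab8b rose from 0.433% to 0.81% up to 4.52% to 6.92%. The family's sum stood at 636 ± 34.8 and 713 ± 29.2 CPM. Rab31 went from 72.3%, 63.1% and 63.7% of its pair's reads to 89.0%, 90.6% and 89.4%, with the sum rising from 129 ± 8.20 to 277 ± 31.6 CPM. In the Rab1 pair, Rab1b went from 29.2%, 28.8% and 23.4% to 20.3%, 16.8% and 18.3%.

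Shares also moved in families without opposite calls. Rab11a held 57.2%, 59.3% and 62.8% of Rab11 reads in the control libraries and 38.6%, 43.8% and 42.5% in the TXNIP libraries, so that Rab11b became the member with more reads while both fell. The family's sum dropped from 391 ± 9.75 to 201 ± 30.3 CPM. Rab4a went from 29.3%, 20.7% and 23.5% of Rab4 reads to 3.95%, 4.76% and 3.05%. Rab3b went from 21.1%, 21.7% and 22.9% of Rab3 reads to 0%, and the Rab3 sum from 89.3 ± 13.5 to 34.2 ± 1.90 CPM.

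**Figure D3:**
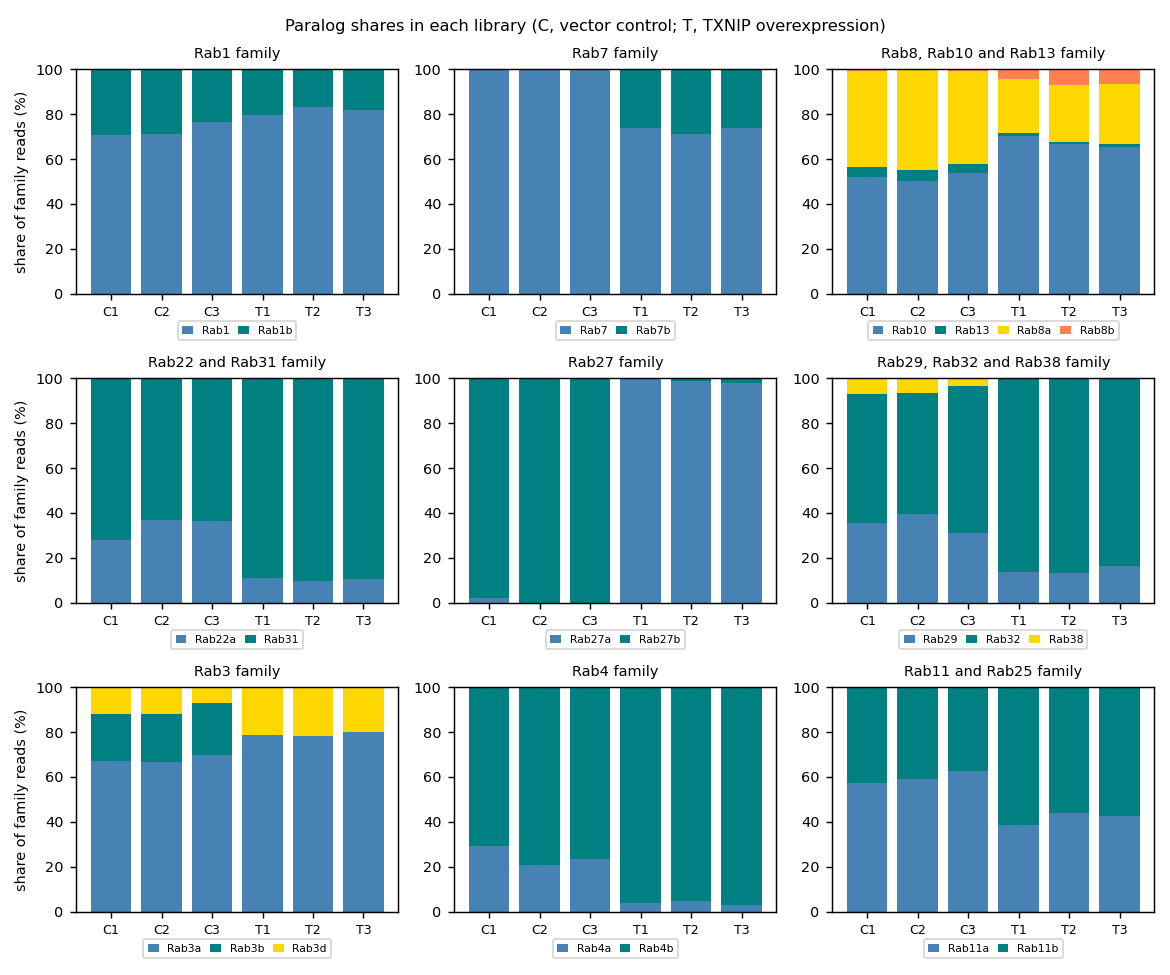
Each bar is 1 library (C1 to C3, vector control; T1 to T3, TXNIP overexpression), and its colours give the percent of a paralog family's reads held by each member. The Rab27 bars turn from Rab27b to Rab27a (mean difference 98.3 points), Rab7b appears beside Rab7, and the Rab11 bars pass from Rab11a to Rab11b as the larger share.

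The upstream sequence is shown for the 2 Rab genes with the largest fall and the 2 with the largest rise among the named genes with a single start in the RefSeq table. Larger rises were thereby left out. Rab7b had no entry there, Rab15 and Rab27a had more than 1 start, and Rab39 did not reach the 5 CPM asked of named genes. Each sequence is the 250 bases before the start (RefSeq, GRCm38.p6, the assembly that mm10 represents), written 5′ to 3′ on the gene's strand. Rab3b spans chr4:108878820-108879069 on the plus strand, and Rab17 chr1:90967668-90967917, Rab8b chr9:66919706-66919955 and Rab32 chr10:10558208-10558457 on the minus strand. Capitals mark the letters GAGGAAGT, the core that the myeloid factor PU.1 binds.
Rab3b: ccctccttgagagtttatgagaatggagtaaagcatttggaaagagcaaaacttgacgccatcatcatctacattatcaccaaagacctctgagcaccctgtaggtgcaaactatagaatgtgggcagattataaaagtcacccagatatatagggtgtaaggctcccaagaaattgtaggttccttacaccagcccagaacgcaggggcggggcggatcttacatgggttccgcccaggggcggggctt
Rab17: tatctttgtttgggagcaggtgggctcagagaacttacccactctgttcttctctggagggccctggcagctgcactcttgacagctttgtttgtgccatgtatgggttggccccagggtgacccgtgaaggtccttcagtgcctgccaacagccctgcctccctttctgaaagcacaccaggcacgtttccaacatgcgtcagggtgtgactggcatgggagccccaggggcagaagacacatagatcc
Rab8b: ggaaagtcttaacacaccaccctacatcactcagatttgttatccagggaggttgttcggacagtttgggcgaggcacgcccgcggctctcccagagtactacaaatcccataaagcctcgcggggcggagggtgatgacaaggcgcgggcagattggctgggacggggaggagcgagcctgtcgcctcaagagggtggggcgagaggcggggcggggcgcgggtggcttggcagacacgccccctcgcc
Rab32: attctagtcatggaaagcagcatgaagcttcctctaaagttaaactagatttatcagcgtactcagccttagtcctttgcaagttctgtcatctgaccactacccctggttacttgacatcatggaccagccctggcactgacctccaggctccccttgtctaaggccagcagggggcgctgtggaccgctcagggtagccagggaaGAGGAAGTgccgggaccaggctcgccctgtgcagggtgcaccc
The match in Rab32 begins 43 bases before the RefSeq start. In the GENCODE M21 annotation, Rab32 spans 10545002 to 10558265, so there the match lies inside the gene. The Rab17 window lies inside its GENCODE gene too (90958133 to 90969661). The gene of PU.1, Spi1, named because of this motif, had 1.43 ± 0.334 CPM in the control libraries and 368 ± 17.2 CPM in the TXNIP libraries (SD, n = 3 each). Spi1 is also on the list of leukocyte markers above, and a link to Rab32 was not tested. Levels of factors for the other motifs are not given here. GC content was 48.8% for Rab3b, 56.8% for Rab17, 64.4% for Rab8b and 55.6% for Rab32, where the median was 60.2% over 60 promoters of 48 Rab genes and 52.4% over all 32851 in the table. Searched on both strands, GAGGAAGT occurred in 2.441% of all promoters and in 2 of the 60 Rab promoters, at Rab32 and Rab2b. The TEAD core GGAATG occurred in 12.642% of all promoters and at 6 Rab genes (Rab11a, Rab11b, Rab15, Rab20, Rab21 and Rab5a). The AP-1 site TGAGTCA occurred in 4.463% and at Rab15 and Rab34, and the E-box CACGTG in 6.021% and at Rab20, Rab21, Rab23, Rab27a and Rab5a. A match is a description of letters in this window, and these promoters were not read out in the experiment.

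The proteins that run the Rab cycle changed about as often as other genes. Of 126 tested regulators and effectors, 38 rose, 44 fell and 44 did not pass, or 65.1% changed, against 64.5% of all tested genes. Among the GEFs 10 rose, 8 fell and 19 did not pass, and among the GAPs 11 rose, 15 fell and 10 did not pass. Among the 7 tested genes for prenylation and membrane delivery, 2 rose, 3 fell and 2 did not pass. Among the 46 tested effectors, 15 rose, 18 fell and 13 did not pass.

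Rab3ip encodes Rabin8, the GEF that loads Rab8. It fell from 109, 123 and 120 CPM to 12.6, 16.2 and 11.3 CPM (8.80-fold, log2 fold change -3.07 ± 0.17 (SE), adjusted p = 1.16e-08), with no overlap. Its own GTPases are Rab8a, which fell, and Rab8b, which rose. Dennd4b, a GEF of the DENN family that acts on Rab10, rose 16.8-fold, from 0.57, 2.41 and 1.26 CPM to 18.6, 27.7 and 24.7 CPM (log2 fold change 4.06, or 4.65 without control replicate 2; adjusted p = 1.76e-06). Rin1, a GEF for Rab5, fell 6.68-fold, and Als2cl, a relative of the Rab5 GEF alsin, fell 16.7-fold (adjusted p = 9e-08 and 1.25e-06). Madd, a GEF for Rab3 and Rab27, rose 2.65-fold, and Ankrd27, which binds Rab32 and Rab38 and activates Rab21, rose 1.80-fold (adjusted p = 8.18e-05 and 0.000305). The subunits of the Rab32 and Rab38 GEF, Hps1 and Hps4, did not pass (adjusted p = 0.0774 and 0.358), and Hps1 passed with library size alone (0.0441) or without TXNIP replicate 2 (0.0433).

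Among the GAPs, Sgsm1 rose 48.2-fold, from 1.37, 0.85 and 0.132 CPM to 31.4, 41.0 and 41.0 CPM (adjusted p = 2.35e-07). Its fitted log2 fold change was 5.79, and 5.20 without control replicate 3. Tbc1d23, a TBC-domain protein that tethers endosome-derived vesicles at the Golgi, rose 4.55-fold (adjusted p = 4.37e-06). Tbc1d9 fell 7.82-fold and Tbc1d12 6.52-fold (adjusted p = 1.26e-06 and 1.35e-05). In the enzyme that prenylates Rabs, both subunits rose, Rabggta 2.55-fold and Rabggtb 1.52-fold (adjusted p = 9.64e-05 and 0.000747). Rabac1, which helps deliver prenylated Rabs to membranes, fell 1.55-fold (adjusted p = 0.0133), which no longer passed without control replicate 2 (0.0505).

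Effectors of the Rabs that changed most are given next; beyond the 4 with the smallest adjusted p (Myo5c, Ehbp1l1, Optn and Sytl2) they were picked after their values were seen. Of 9 listed Rab27 effectors, which link granules to actin, motors and the plasma membrane, 3 were tested (Mlph, Sytl5 and Sytl2). They passed the filter only through the controls, so that they could only be called lower. Mlph, the melanophilin that ties Rab27a to myosin Va, had 68.3, 27.9 and 26.9 CPM in the control libraries and no read in the TXNIP libraries (at least 374-fold lower). Sytl5 had 267 reads against 0 (at least 71.4-fold lower), and Sytl2 had 416 against 1, a ratio of 334 (exact 95% interval 59.6 to 13220). Without TXNIP replicate 1, which held that read, the fitted log2 fold change of Sytl2 moved from -7.91 to -10.02. The other 6 (Sytl1, Sytl3, Sytl4, Myrip, Exph5 and Unc13d) had from 0 to 41 control reads and at most 2 in the TXNIP libraries.

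Of 3 class V myosins, the motors that Rab11, Rab8, Rab10 and Rab27 recruit, 1 was higher and 2 lower. Over all tested genes, which are the background for each count here, 30.6% were higher and 33.9% lower. Myo5c and Myo5b passed the filter only through the controls, so they could only be called lower. Myo5c, the epithelial form, had 157, 126 and 118 CPM in the control libraries and no read in the TXNIP libraries (at least 1320-fold lower), and Myo5b had 339 reads against 1, a ratio of 272 (exact 95% interval 48.5 to 10779). Without TXNIP replicate 2, which held that read, the fitted log2 fold change of Myo5b moved from -7.66 to -9.71. Myo5a rose from 38.2, 33.6 and 40.4 CPM to 119, 77.5 and 85.6 CPM (2.52-fold, adjusted p = 2.29e-05). Of 4 tested Rab11 family interacting proteins, Rab11fip2, Rab11fip3 and Rab11fip5 fell, Rab11fip3 the most at 3.75-fold (adjusted p = 2.6e-06). Rab11fip1 rose 1.40-fold (adjusted p = 0.0157), which no longer passed without control replicate 2 (0.0511) or 3 (0.0849). Optn, optineurin, which binds Rab8, had 49.3, 23.5 and 32.5 CPM and then no read (at least 336-fold lower), and Ehbp1l1, a Rab8 and Rab10 effector of apical transport, rose 4.45-fold (adjusted p = 2.48e-08). Optn too passed the filter only through the controls, so it could only be called lower.

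Effectors of Rab5 and Rab7 did not move one way. Eea1 and Appl1, which active Rab5 recruits, rose 2.42-fold and 2.37-fold (adjusted p = 0.000276 and 5.43e-05), while Rabep1, Rabep2 and Rbsn did not pass (adjusted p = 0.0921, 0.0581 and 0.902). Rabep1 passed without TXNIP replicate 2 (0.0222) and with a replicate block (0.0363). Rabep2 passed without TXNIP replicate 3 (0.0495). Plekhm1 and Vps39, partners of Rab7 in lysosome fusion, rose 3.66-fold and 2.11-fold (adjusted p = 8.86e-07 and 0.000516). Vps41 did not pass (adjusted p = 0.181), and Osbpl1a, a sterol-sensing Rab7 effector, fell 1.74-fold (adjusted p = 0.0307). It no longer passed without control replicate 1 or 3 or TXNIP replicate 2 (adjusted p from 0.0625 to 0.123). Rilp, which links Rab7 to dynein, fell from 2.28, 2.19 and 1.98 CPM to 0.344, 0.283 and 0.895 CPM (adjusted p = 0.0136), with a log2 fold change of -1.97, or -2.65 without TXNIP replicate 3. The Rilp call was lost without TXNIP replicate 1 (0.0608) or 2 (0.0705). Rilp passed the filter only through the controls, so it could only be called lower. Of the 2 listed kinases of Rabs, 1 was higher and 1 lower, beside 30.6% higher and 33.9% lower over all tested genes. Lrrk2 passed the filter only through the TXNIP libraries, so it could only be called higher. Lrrk2, which phosphorylates Rab8, Rab10 and Rab12 and is recruited by Rab29, had no control read and 7.91, 9.52 and 9.22 CPM in the TXNIP libraries (at least 113-fold higher). Lrrk1, a kinase of Rab7, fell 3.25-fold, from 35.0, 52.3 and 46.8 CPM to 11.3, 14.7 and 15.2 CPM (adjusted p = 2.03e-05).

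**Figure D4:**
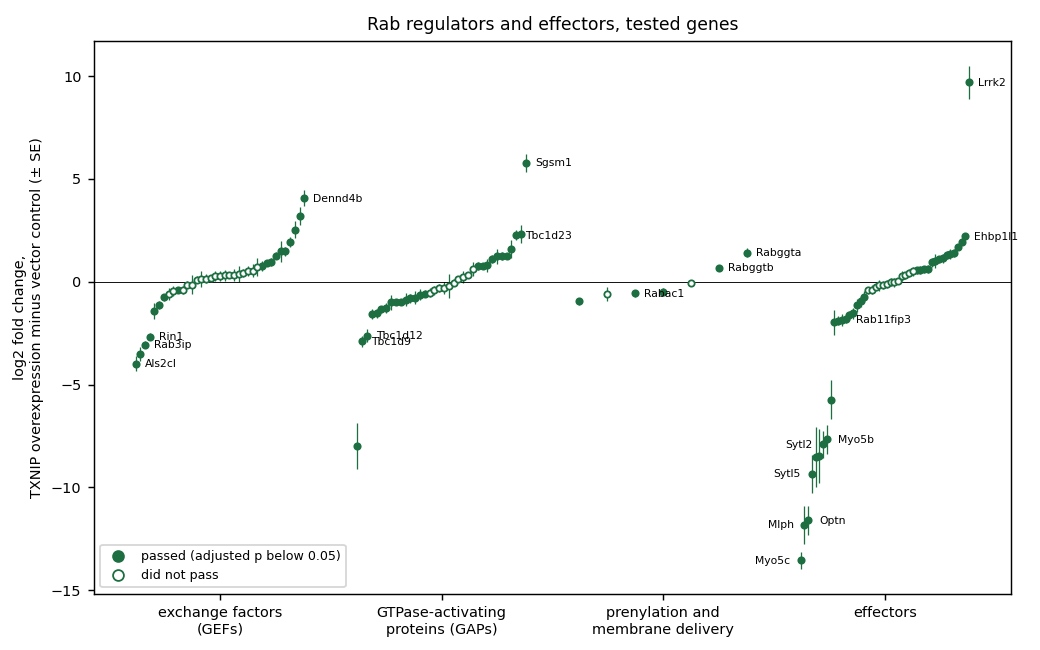
Points are the tested Rab regulators and effectors, ordered within each role by the fitted log2 fold change, TXNIP overexpression minus vector control, with bars of ± SE (filled, passed at an adjusted p under 0.05; open, did not pass). Myo5c, Mlph, Optn and Sytl5 are effectors with no read in the TXNIP libraries and Lrrk2 one with no read in the controls, so their fitted values depend on the prior count.

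Some Rab counts could include reads of a neighbour. In the GENCODE M21 annotation of GRCm38, all 59 Rab genes could be placed, and 6 had an exon of another counted gene within the last 500 bases of a Rab gene. No source used here says whether counting used strand, so reads of the 2 genes cannot be told apart. Nor is it stated how reads that match more than 1 paralog were counted. Of these, 5 are among the Rab genes that changed. Rab10os, opposite Rab10, had 8.63 and 19.3 CPM (mean of controls, then of TXNIP libraries) beside the 330 and 481 CPM of Rab10. Mpv17l2, opposite Rab3a, had 89.7 and 37.7 CPM, and Pp2d1, opposite Rab5a, had 31.8 and 15.8 CPM, and both fell with the Rab gene beside them. The neighbours of Rab3b (8030443G20Rik) and Rab7 (Gm5577) had under 2 CPM in both groups, and Traf7 overlaps Rab26 on the same strand. Rab7b and Rab29, a riser and a gene that did not pass, lie 151785 bases apart on chromosome 1.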

How the data were processed

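RNA was extracted with Trizol and made into Lexogen QuantSeq libraries, which read the 3′ end of messenger RNAs, per the labels' protocols. The values deposited by the authors are unscaled whole-number counts of reads for each gene symbol, 1 file per library. Bowtie2, bedtools and mm10 are named in the submitters' processing notes. Versions, annotation, strand and duplicate handling are stated in none of the sources used here.

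Counts were scaled by TMM, filtered with filterByExpr (a level of about 0.918 CPM in 3 libraries) and compared by the quasi-likelihood test of edgeR 4.0.16 (R 4.3.3; two-sided, group as the only term, all 6 libraries). P-values were adjusted by Benjamini-Hochberg over 12088 genes, with a threshold of 0.05. Levels and folds are CPM by library totals; log2 fold changes, as TXNIP minus control with their SE, are from the fit. Where a group had no read, folds are lower bounds against 3 reads over the group, and with 1 to 3 reads the ratio of pooled counts has an exact 95% interval. Both cover counting error only. Scripts were tested on simulated data.

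Full values went to Rab genes past the threshold with separate groups, at least 5 CPM in 1 group and a 2-fold difference, to families with opposite calls, and to the 4 members of each regulator list with the smallest adjusted p, of which 1 is not reported here. The members and lists were chosen with earlier results of these data known. The alternatives were RLE factors, library size alone, limma-voom (limma 3.58.1), DESeq2 1.42.0, no filter, at least 5 CPM in 3 libraries, a replicate block, Rn45s removed, an adjusted p of 0.01 and each library left out. Plots used matplotlib 3.10.9.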

Additional observations from a re-analysis of the deposited data

How the results depend on the processing

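The number of changed Rab genes was 31 in the test as reported, 31 with RLE factors, library size alone, a replicate block or Rn45s removed, 32 in DESeq2, 30 in limma-voom, 33 of 55 without a filter, 27 of 41 at 5 CPM in 3 libraries, 23 at an adjusted p of 0.01, and 27 to 29 with 1 library left out. Of the 31, 23 kept call and direction under every alternative in which they were tested. The other 8 (Rab1, Rab1b, Rab2b, Rab5a, Rab7, Rab11b, Rab22a and Rab33b) lost it at least once, Rab33b only at an adjusted p of 0.01. Families with opposite calls numbered 6, and 3 at an adjusted p of 0.01 (Rab8 with Rab10 and Rab13, Rab27, and Rab29 with Rab32 and Rab38), a smaller number because that threshold calls fewer genes; with 1 library left out they numbered 4 to 6, with no filter or in DESeq2 7, and in limma-voom or at 5 CPM 5. Which families they were changed too: with library size alone Rab1 dropped out and Rab2 came in, and in 4 of the leave-outs the family of Rab19, Rab30 and Rab43 came in. Rab8 with Rab10 and Rab13 was among them in every setting. Deviations from the group mean correlated at 0.0666, 0.0215 and 0.0351 between libraries of the same replicate number. Between libraries of different numbers the values ran from -0.0468 to 0.0249. With 3 libraries per group, deviations are tied to each other, so this cannot settle whether the numbers pair the libraries. With the replicate block, 31 Rab genes and 6 families were found and no Rab call was lost.

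Signs turned only in genes that did not pass. With library size alone, the log2 fold change was -0.051 for Rab23, -0.053 for Rab29, -0.0038 for Rab5c, -0.071 for Rab24 and -0.018 for Rab35. Rab24, at 0.00094 in the test as reported, was -0.0090 with RLE factors, -0.0054 without a filter, -0.010 at 5 CPM, -0.0088 in DESeq2, -0.023 in limma-voom and -0.018 with the replicate block. With 1 library left out, the log2 fold change ranged from -0.21 to 0.27 for Rab23, -0.10 to 0.17 for Rab29, -0.20 to 0.087 for Rab5b, -0.19 to 0.12 for Rab24, -0.096 to 0.0097 for Rab14, -0.032 to 0.18 for Rab35, -0.17 to 0.045 for Rab6a and -0.12 to 0.083 for Rbsn. The cause was not tested. Regulators and effectors that changed numbered 82, and 64 at an adjusted p of 0.01 to 85 in DESeq2 over all alternatives. Where a group held 3 reads or fewer, depth limits a fold to a bound or a wide interval.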
